A study of Mus musculus with 6 samples.

Results

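Transcript levels of 7 genes were examined in mouse hippocampus: the estrogen receptor alpha gene Esr1, the progesterone receptor gene Pgr, the estrogen-responsive gene Greb1, the glucocorticoid receptor gene Nr3c1, the mineralocorticoid receptor gene Nr3c2, and the estrogen-related receptor genes Esrra and Esrrg. They were chosen by symbol, 7 of 25896 gene symbols listed in the count tables, and the tables list 50 transcripts for them. For each gene the transcript with the highest mean raw count over the 6 libraries stands for the gene. The DICER1-ifKO animals carried floxed Dicer1 alleles (Dicer1 flox/flox) and the CaMKIIa-creERT2 transgene, whose CaMKIIa promoter drives the recombinase in excitatory neurons of the forebrain. The WT controls had the same Dicer1 flox/flox alleles and no Cre. All animals were male C57BL/6 mice aged 3 months, all received tamoxifen, and all were killed 3 weeks later. There were 3 libraries in each group, each made from the pooled hippocampal RNA of 3 mice. None of the libraries came from mice without tamoxifen, and none from Cre-carrying mice with intact Dicer1, so the Cre transgene and the loss of DICER1 cannot be told apart and an effect of tamoxifen alone was not tested.

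Steroid receptors are transcription factors held in the cytoplasm or nucleus by HSP90 chaperone complexes until a hormone binds their ligand-binding domain, after which they bind DNA and recruit coactivators or corepressors. Tamoxifen and its hydroxylated metabolite bind that domain of the estrogen receptor. The creERT2 protein joins the Cre recombinase to a mutated ligand-binding domain of the human estrogen receptor alpha, which keeps the recombinase inactive until a tamoxifen metabolite binds. The estrogen-related receptors resemble the estrogen receptors in sequence but do not need estrogen, and the hydroxylated metabolite of tamoxifen also binds ERR gamma, the product of Esrrg. In the hippocampus the mineralocorticoid and glucocorticoid receptors mediate responses to corticosterone, and the mineralocorticoid receptor is known for its high level in pyramidal neurons, above all those of CA2.

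Counts summed over 1 transcript per gene ranged from 15409074 to 20677845 in the DICER1-ifKO libraries and from 11832794 to 16125481 in the WT libraries. Levels are given in CPM, counts scaled to library size with TMM factors. Differences are log2 fold changes of DICER1-ifKO over WT from edgeR's quasi-likelihood test, with p-values adjusted by Benjamini-Hochberg over 17405 genes and a threshold of 0.05. By that rule 0.161% of the genes tested were called, 28 in all, of which 22 (0.126%) were higher and 6 (0.0345%) lower in DICER1-ifKO. The deleted Dicer1 segment is not given in the sources used here, and the full-length Dicer1 transcript, at 59.7 ± 2.82 CPM in DICER1-ifKO and 57.8 ± 3.63 CPM in WT (SD, n = 3 each), does not check the deletion. Of 10 pyramidal neuron markers and 8 dentate granule cell markers all passed the filter on low counts, against 4 of 13 markers of the hypothalamus, a region rich in estrogen receptor. All 11 markers of thalamus and striatum passed too, and 4 of 8 markers of choroid plexus. Passing the filter therefore does not tell the hippocampus from neighbouring regions. In bulk RNA, fewer cells of a type and less RNA per cell cannot be told apart.

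Of the 7 genes, 1 was called, Esr1, and it was also the only 1 whose DICER1-ifKO and WT libraries did not overlap, which was the case in the same direction for 7.99% of all genes tested. The representative transcript Esr1-001 spans chr10:4611989-5005614 on the plus strand of GRCm38. Its raw counts were 156, 246 and 245 in the DICER1-ifKO libraries, against 47, 76 and 53 in the WT libraries. Its level was 10.1, 13.7 and 12.0 CPM in DICER1-ifKO and 4.0, 4.78 and 3.26 CPM in WT. Each DICER1-ifKO library was thus above each WT library. The level averaged 11.9 ± 1.76 CPM in DICER1-ifKO and 4.01 ± 0.762 CPM in WT (SD, n = 3 each). On the log2 scale the difference was 1.58 with a 95% interval of 1.26 to 1.89 (adjusted p = 7.53e-06 by edgeR's quasi-likelihood test), a fold of 2.98.

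**Figure D1:**
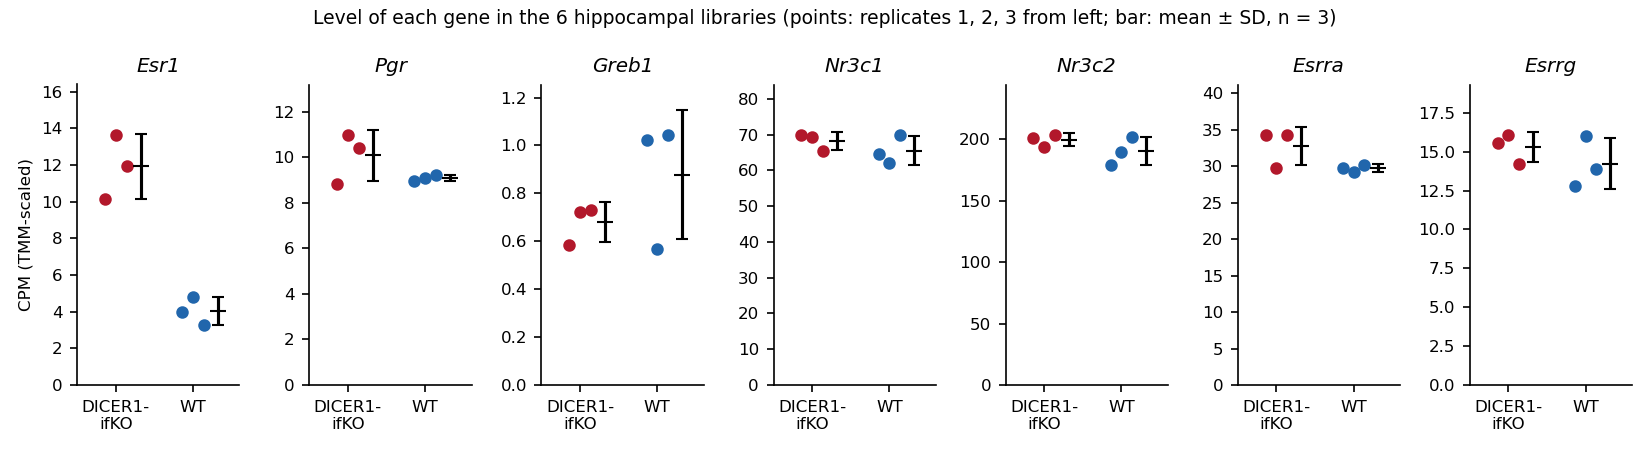
Level of each gene in CPM after TMM scaling in each of the 3 DICER1-ifKO libraries (red) and the 3 WT libraries (blue), with the mean and SD beside the points; each panel has its own axis from 0. The Esr1 points lie between 10.1 and 13.7 CPM in DICER1-ifKO and between 3.26 and 4.78 CPM in WT, and in the other 6 panels the groups overlap.

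The Esr1 rise lay in a short stretch near the 3′ end of the coding sequence. The stretch is exon 8 (134 bases, chr10:4969159-4969292) and the first 101 bases of exon 9 (chr10:4997830-4997930), numbered along Esr1-001. Both encode part of the ligand-binding domain of the receptor, the domain that is also in creERT2. It is the exonic sequence that the called Esr1 transcripts Esr1-001, 002, 004, 006 and 009 share and that Esr1-007 lacks. Exon 7 (139 bases, chr10:4939212-4939350) precedes it and is in all 6 of these transcripts. The 3 sequences below, from the GRCm38 genome on the plus strand, are shown because the counts divide between them. Capitals mark the bases absent from Esr1-007.
Esr1 exon 7: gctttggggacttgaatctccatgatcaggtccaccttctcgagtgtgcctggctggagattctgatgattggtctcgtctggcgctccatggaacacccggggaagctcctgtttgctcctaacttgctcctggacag
Esr1 exon 8: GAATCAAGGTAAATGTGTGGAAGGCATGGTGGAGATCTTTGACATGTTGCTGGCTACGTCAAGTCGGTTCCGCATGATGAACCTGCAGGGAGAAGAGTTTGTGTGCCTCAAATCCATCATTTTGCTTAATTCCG
Esr1 exon 9, first part: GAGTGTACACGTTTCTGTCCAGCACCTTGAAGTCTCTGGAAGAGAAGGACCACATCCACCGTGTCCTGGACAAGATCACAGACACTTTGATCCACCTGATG

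The tables hold overlapping transcripts, and a read in a shared exon appears to enter the count of each transcript that holds it, since no shorter Esr1 transcript of the called 5 exceeded a longer one by more than 1 count. Differences between overlapping transcripts therefore place the reads, though the pairs used are not fully nested. Esr1-006 holds 94 bases that Esr1-004 lacks, Esr1-004 140 that Esr1-001 lacks and Esr1-009 345 that Esr1-006 lacks, so each difference is net. Esr1-006, which has a short first exon of its own just before exon 7 and then holds the 3′ exons, had 129, 198 and 189 counts in DICER1-ifKO and 13, 19 and 17 counts in WT. Esr1-009 starts with an exon of its own and ends with the first 101 bases of exon 9. It had 127, 196 and 189 counts in DICER1-ifKO and 12, 18 and 18 counts in WT. These transcripts differed by at most 2 counts in any library. The counts of Esr1-001 that were not in Esr1-006 were 27, 48 and 56 in DICER1-ifKO, against 34, 57 and 36 in WT, and the groups overlapped. Summed over libraries, that remainder was 131 counts in DICER1-ifKO and 127 counts in WT.

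The remainder splits into an upstream and a downstream part, and the groups overlapped in both. Counts of Esr1-004 that were not in Esr1-006, mainly in the upstream exons, were 10, 19 and 21 in DICER1-ifKO and 9, 21 and 17 in WT. Counts of Esr1-001 that were not in Esr1-004, mainly in the long 3′ UTR, were 17, 29 and 35 in DICER1-ifKO and 25, 36 and 19 in WT. Esr1-007, which holds the upstream coding exons and exon 7 and then ends in sequence of its own, had 11, 25 and 21 counts in DICER1-ifKO and 10, 18 and 16 counts in WT. Its log2 fold change was 0.06 (SE 0.32, 95% interval -0.60 to 0.73, adjusted p = 0.974 over 60500 transcripts by edgeR's quasi-likelihood test), and it turned negative without DICER1-ifKO replicate 2 or without WT replicate 1, with a range of -0.18 to 0.24 over the 6 libraries left out in turn.

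The share of Esr1-001 counts that fell in Esr1-006 was 82.7%, 80.5% and 77.1% in the DICER1-ifKO libraries, against 27.7%, 25.0% and 32.1% in the WT libraries. The Wilson 95% intervals, which cover counting error only, were 76.0% to 87.8%, 75.1% to 85.0% and 71.5% to 82.0% in DICER1-ifKO, and 16.9% to 41.8%, 16.6% to 35.8% and 21.1% to 45.5% in WT. No interval of one group reached an interval of the other. Densities per kb of transcript are given here in CPM of the fit over all transcripts, whose library sizes count a shared read more than once. They are therefore lower than CPM per kb from the fit over genes. The density of Esr1-006 was 3.87 ± 0.538 CPM per kb in DICER1-ifKO and 0.458 ± 0.0302 CPM per kb in WT (SD, n = 3 each). That of Esr1-007 was 0.158 ± 0.0509 CPM per kb in DICER1-ifKO and 0.151 ± 0.0201 CPM per kb in WT (SD, n = 3 each). On the same scale Esr1-001 was at 0.778 ± 0.115 CPM per kb in DICER1-ifKO and 0.265 ± 0.0497 CPM per kb in WT (SD, n = 3 each). The log2 ratio of Esr1-006 to Esr1-007 counts, with 0.5 added to each, was 3.49, 2.96 and 3.14 in DICER1-ifKO and 0.36, 0.08 and 0.08 in WT. The mean ratio was higher by 3.02 in DICER1-ifKO (exact two-sided permutation test, p = 0.1, the smallest p that 3 libraries against 3 allow).

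When the counts of Esr1-006 were subtracted from Esr1-001 before the fit over all genes, an alternative chosen after seeing the data, the Esr1 log2 fold change was -0.26 (SE 0.22, adjusted p = 0.749 by edgeR's quasi-likelihood test), against 1.58 with them. Since Esr1-006 had already been seen to hold the excess counts, that fit restates the counts above and is no separate test. All DICER1-ifKO mice and no WT mice carry the fusion gene. In the shared stretch the counts therefore cannot tell reads of creERT2 from reads of Esr1 itself. The domain in the fusion is human, its sequence was not compared with the mouse exons, and where its reads align was not tested. Among the transcripts of Esr1, 10 were listed, 6 passed the filter on low counts and 5 were called higher in DICER1-ifKO, where 0.0595% of all 60500 transcripts tested were, and none was called lower, where 0.0182% of all were. The 4 that did not pass had at most 12 counts in any library.

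**Figure D2:**
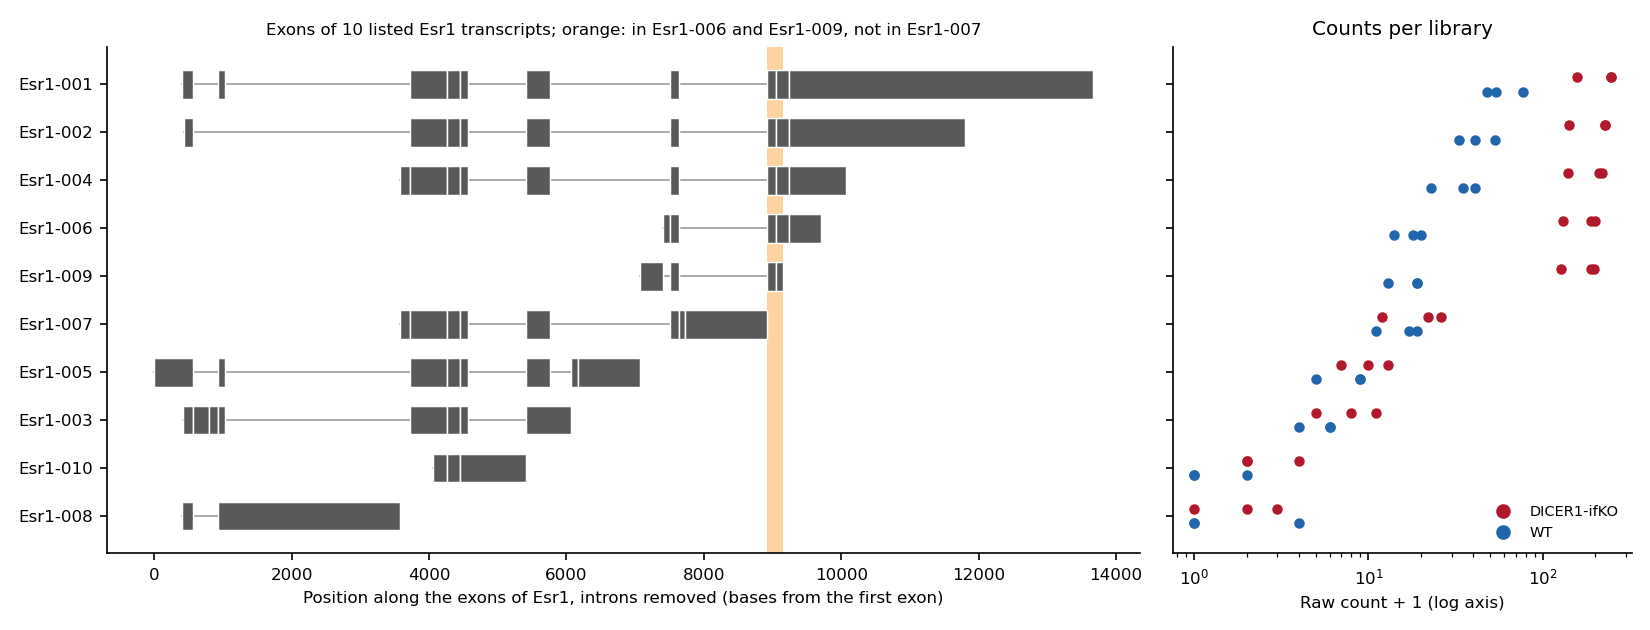
Left, exons of the 10 listed Esr1 transcripts with introns removed (x axis, bases from the first exon), with an orange band over the stretch present in Esr1-006 and Esr1-009 and absent from Esr1-007; right, raw count plus 1 of each transcript per library on a log axis, DICER1-ifKO red and WT blue. Transcripts that reach the band separate by group (Esr1-006, 129 to 198 counts in DICER1-ifKO and 13 to 19 in WT), and those that end before it do not (Esr1-007, 11 to 25 counts in DICER1-ifKO and 10 to 18 in WT).

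Pgr and Greb1 are transcribed in response to estrogen-bound receptor in reproductive tissues and in breast cancer cells, and neither was called. Pgr encodes the progesterone receptor, and its transcript Pgr-001 spans chr9:8900468-8965425 on the plus strand. Its level was 8.83, 10.99 and 10.4 CPM in DICER1-ifKO and 8.94, 9.06 and 9.22 CPM in WT. The DICER1-ifKO libraries thus had both the lowest and the highest values. Pgr's log2 fold change was 0.16 (SE 0.11, 95% interval -0.08 to 0.39, adjusted p = 0.694 by edgeR's quasi-likelihood test), with 0.23 when DICER1-ifKO replicate 1 was left out and 0.09 when DICER1-ifKO replicate 2 was.

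Greb1 encodes a coactivator of the estrogen receptor and is named for its regulation by estrogen in breast cancer. Its transcript Greb1-001 spans chr12:16670615-16800684 on the minus strand. Greb1 had few counts, 9, 13 and 15 in DICER1-ifKO and 12, 9 and 17 in WT. These came to 0.584, 0.722 and 0.732 CPM in DICER1-ifKO and 1.02, 0.566 and 1.05 CPM in WT, with a WT library lowest and WT libraries highest. Its log2 fold change was -0.34 (SE 0.35, 95% interval -1.06 to 0.39, adjusted p = 0.793 by edgeR's quasi-likelihood test), and without WT replicate 2 it was -0.59 and without WT replicate 3 it was -0.15. The low counts leave the 95% interval of Greb1 wide.

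Nr3c1 and Nr3c2, the corticosteroid receptors, did not pass the test. Nr3c1-001, the glucocorticoid receptor transcript, spans chr18:39410545-39490674 on the minus strand. It was at 69.9, 69.4 and 65.3 CPM in DICER1-ifKO and 64.4, 62.1 and 70.0 CPM in WT. The highest value belonged to a WT library and the groups overlapped. For Nr3c1 the log2 fold change came to 0.06 (SE 0.06, 95% interval -0.06 to 0.18, adjusted p = 0.793 by edgeR's quasi-likelihood test), with 0.02 when WT replicate 2 was left out and 0.11 when WT replicate 3 was.

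Nr3c2-001, the mineralocorticoid receptor transcript, spans chr8:76899772-77245012 on the plus strand. Its level was 201, 194 and 204 CPM in DICER1-ifKO and 179, 190 and 202 CPM in WT. The lowest value was that of WT replicate 1, the library with the smallest total count, and the WT range reached into that of DICER1-ifKO. For Nr3c2 the log2 fold change came to 0.07 (SE 0.05, 95% interval -0.03 to 0.17, adjusted p = 0.691 by edgeR's quasi-likelihood test), and it was 0.03 when WT replicate 1 was left out and 0.11 when WT replicate 3 was. Among 7 CA2 neuron markers, 2 had a positive and 5 a negative log2 fold change. Of the 7, 1 was called, Rgs14, a regulator of G protein signalling concentrated in CA2, which was lower in DICER1-ifKO, as were 0.0345% of all genes tested (-0.31 on the log2 scale, SE 0.06, adjusted p = 0.0173 by edgeR's quasi-likelihood test). The summed level of the CA2 markers ranged from 433 to 455 CPM in DICER1-ifKO and from 449 to 498 CPM in WT, and the part of this in the Nr3c2 level was not tested. Among 8 dentate granule cell markers 1 was called, the calcium-binding protein gene Calb1, at -0.27 (adjusted p = 0.0323 by edgeR's quasi-likelihood test).

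Esrra and Esrrg encode the estrogen-related receptors alpha and gamma, which act with the coactivator PGC-1 alpha on genes of mitochondrial energy metabolism. Esrra-001 spans chr19:6910977-6921808 on the minus strand, and its level was 34.3, 29.7 and 34.3 CPM in DICER1-ifKO and 29.8, 29.1 and 30.2 CPM in WT. DICER1-ifKO replicates 1 and 3 lay above the WT libraries and DICER1-ifKO replicate 2 lay among them. For Esrra the log2 fold change came to 0.14 (SE 0.07, 95% interval -0.01 to 0.29, unadjusted p = 0.0646 and adjusted p = 0.518 by edgeR's quasi-likelihood test). Without DICER1-ifKO replicate 2 the log2 fold change was 0.21.

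Esrrg-003 spans chr1:187609029-188214386 on the plus strand, and its level was 15.6, 16.1 and 14.2 CPM in DICER1-ifKO and 12.8, 16.0 and 13.9 CPM in WT. The lowest value was again that of WT replicate 1, and the groups overlapped. The log2 fold change was 0.09 (SE 0.10, 95% interval -0.11 to 0.30, adjusted p = 0.796 by edgeR's quasi-likelihood test), and it was 0.19 without WT replicate 2 and 0.03 without WT replicate 1. The related receptors Esr2 and Esrrb were not called either, with an adjusted p of 0.963 for Esr2 and 0.962 for Esrrb by edgeR's quasi-likelihood test. Esr2, the estrogen receptor beta gene, was at 2.20 ± 0.0929 CPM in DICER1-ifKO and 2.28 ± 0.130 CPM in WT (SD, n = 3 each), and Esrrb, which encodes ERR beta, was at 1.79 ± 0.456 CPM in DICER1-ifKO and 1.68 ± 0.0908 CPM in WT (SD, n = 3 each).

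**Figure D3:**
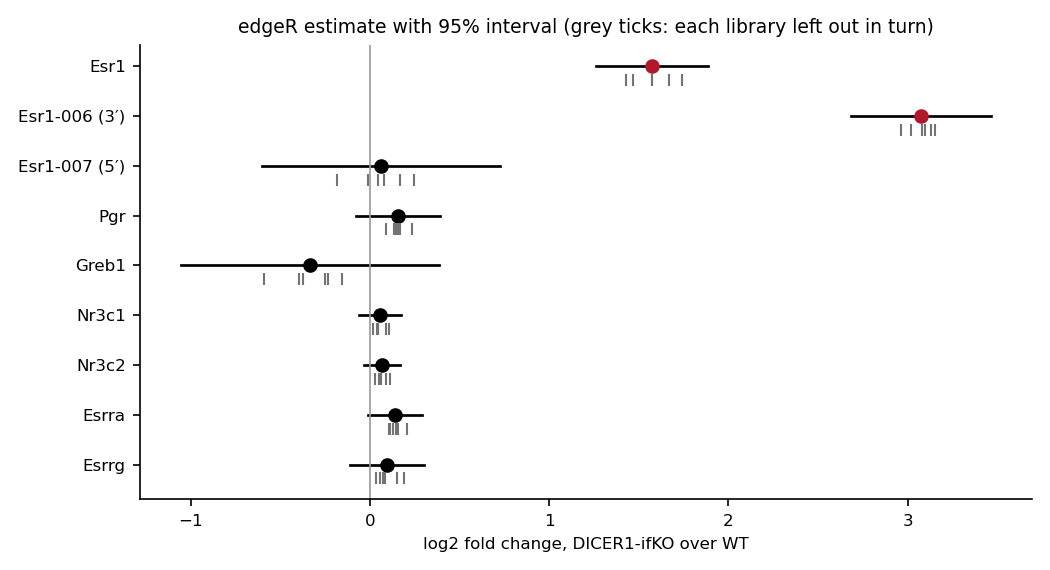
Log2 fold change of DICER1-ifKO over WT with its 95% interval for the 7 genes and for Esr1-006 and Esr1-007 (red, called; black, not called), with grey ticks for each library left out in turn. Esr1 stands at 1.58 and Esr1-006 at 3.07, while the intervals of Esr1-007 and the other 6 genes include 0.

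The other transcripts of the 6 genes besides Esr1 gave no call either. Of 40 listed transcripts 29 passed the filter on low counts, and 25 of these were positive on the log2 scale, as were 49.5% of all transcripts tested. The lowest adjusted p among them was 0.478 by edgeR's quasi-likelihood test. The values ranged from 0.04 to 0.36 over 7 Nr3c1 transcripts, from -0.04 to 0.12 over 8 Nr3c2 transcripts and from 0.14 to 0.30 over 2 Pgr transcripts. They ranged from -0.39 to -0.35 over 2 Greb1 transcripts, from 0.13 to 0.43 over 5 Esrra transcripts and from -0.03 to 0.08 over 5 Esrrg transcripts. Transcripts of 1 gene share exons and reads, so they are not independent measurements. Opposite-strand genes overlap the exons of Nr3c2-001 over 247 bases, of Greb1-001 over 736 bases and of Esrra-001 over 73 bases, and since whether counting used strand is not given, reads of both genes cannot be told apart there.

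Levels compared between genes are given per kb of transcript. Nr3c2 was highest, at 33.7 ± 0.880 CPM per kb in DICER1-ifKO and 32.2 ± 1.94 CPM per kb in WT (SD, n = 3 each). Esrra followed, at 14.6 ± 1.19 CPM per kb in DICER1-ifKO and 13.3 ± 0.237 CPM per kb in WT, and then Nr3c1, at 10.6 ± 0.396 CPM per kb in DICER1-ifKO and 10.2 ± 0.627 CPM per kb in WT. Below these, Pgr was at 3.28 ± 0.364 CPM per kb in DICER1-ifKO and 2.96 ± 0.0467 CPM per kb in WT, and Esrrg at 3.17 ± 0.202 CPM per kb in DICER1-ifKO and 2.94 ± 0.338 CPM per kb in WT. The ranges of Pgr and Esrrg over the 6 libraries overlapped, and those of every other pair of neighbours in this order did not. Esr1 was lower, at 1.88 ± 0.278 CPM per kb in DICER1-ifKO, with the shared stretch included, and 0.633 ± 0.120 CPM per kb in WT, and Greb1 was lowest, at 0.0843 ± 0.0102 CPM per kb in DICER1-ifKO and 0.109 ± 0.0335 CPM per kb in WT. All SDs are over 3 libraries.

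DICER1 cuts microRNA precursors into mature microRNAs, which pair through their seed with sites in 3′ UTRs and lower the level or translation of the transcript. Sites matching 15 microRNAs of forebrain neurons or with known steroid receptor targets were counted as 7-base matches to the seed on the transcript strand of the annotated 3′ UTRs. The mature sequences below, from RefSeq on GRCm38.p6, are those whose sites are described next, with the seed (bases 2 to 8) in capitals. None of the 5 shares a seed with another.
mmu-miR-135a-5p: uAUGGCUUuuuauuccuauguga
mmu-miR-137-3p: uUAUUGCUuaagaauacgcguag
mmu-miR-18a-5p: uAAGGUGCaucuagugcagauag
mmu-miR-22-3p: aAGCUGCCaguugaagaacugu
mmu-miR-9-5p: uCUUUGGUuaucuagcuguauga

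The 3′ UTRs differed in length and in the number of these sites. Esr1 had 8 sites in 4191 bases, Nr3c1 8 sites in 3937 bases, Greb1 6 sites in 1765 bases and Esrra 5 sites in 774 bases. Nr3c2 had 3 sites in 2482 bases, Esrrg 1 site in 3247 bases and Pgr none in 287 bases. The match to miR-135a, AAGCCAT, occurred 2 times in Nr3c2 and 2 times in Esrra, and at least once in 13.2% of 9557 UTRs of tested genes. The median length of these UTRs was 1055 bases, and the shares given here are not adjusted for length. The match to miR-137, AGCAATA, occurred 2 times in Esrra, once each in Nr3c1, Nr3c2, Greb1 and Esrrg, and in 9.7% of the UTRs. The match to miR-9, ACCAAAG, occurred 4 times in Greb1 and in 12.9% of the UTRs. Matches to miR-18a, GCACCTT, and to miR-22, GGCAGCT, occurred 2 times each in Esr1 and once each in Nr3c1, and in 8.5% and 14.8% of the UTRs. A match is a description of letters, not of a bound site. The sites printed are the Nr3c2 and Esrra pairs and, for the microRNAs known to target estrogen receptor alpha, miR-18a and miR-22, the Esr1 match of each that is followed by an A. Each is given on the strand of the transcript with the seed match in capitals.
Nr3c2 miR-135a site, chr8:77242776-77242805, plus strand: gttcctctggatgaaAAGCCATatctagtc
Nr3c2 miR-135a site, chr8:77244748-77244777, plus strand: cttaactaaacagcaAAGCCATattctcta
Esrra miR-135a site, chr19:6911500-6911529, minus strand: agtgctgccccttgcAAGCCATaacgtgcc
Esrra miR-135a site, chr19:6911459-6911488, minus strand: ttgggggcctcgcggAAGCCATagggggct
Esrra miR-137 site, chr19:6911252-6911281, minus strand: attgcccccccttgaAGCAATAactccaag
Esrra miR-137 site, chr19:6911143-6911172, minus strand: ctctatgccctgcagAGCAATAacactata
Esr1 miR-18a site, chr10:5003259-5003288, plus strand: gtttgtgtttaagaaGCACCTTatatagta
Esr1 miR-22 site, chr10:5003622-5003651, plus strand: aggaaaattattcagGGCAGCTaattttgc

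Among the 7 genes, none with such sites was called other than Esr1. For Esr1, the counts of Esr1-001 that were not in Esr1-006 overlapped between the groups. They include those of the 3′ UTR except its start, which Esr1-006 also holds. Nr3c2 and Esrra, with 2 sites each for miR-135a, had log2 fold changes of 0.07 and 0.14, and Pgr, with no site for any of the 15, had 0.16. Greb1, with 4 sites for miR-9, had -0.34. The levels of the mature microRNAs were not measured in these polyadenylated RNA libraries.

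Genes around the receptors gave no call in any of 7 lists. The HSP90 chaperone list holds genes of chaperones and cochaperones, some of which keep steroid receptors ready to bind hormone. Of its 15 genes, 14 had a negative and 1 a positive log2 fold change. Their median was -0.09, beside -0.00 over all genes tested, of which 8524 (49.0%) were positive and 8881 negative. In 6 of the 15 the DICER1-ifKO libraries lay below the WT libraries without overlap, as they did in 8.08% of all genes tested, and the summed level was 4576 to 4675 CPM in DICER1-ifKO and 4803 to 5091 CPM in WT. Hsp90aa1, the inducible HSP90, was at 818 ± 26.8 CPM in DICER1-ifKO and 928 ± 49.1 CPM in WT (SD, n = 3 each), with an adjusted p of 0.153 by edgeR's quasi-likelihood test, 0.0220 by DESeq2 and 0.0327 with no filter on low counts. Dnaja1, an HSP40 cochaperone, was at 246 ± 2.30 CPM in DICER1-ifKO and 274 ± 7.04 CPM in WT (SD, n = 3 each), with an adjusted p of 0.176 by edgeR's quasi-likelihood test.

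The list of coactivators and corepressors had 14 positive and 4 negative log2 fold changes among 18 genes tested and a median of 0.07, which was 0.12 without WT replicate 2 and 0.05 without WT replicate 1. In 5 of the 18 the DICER1-ifKO libraries lay above the WT libraries without overlap, beside 7.99% of all genes tested. In 2 they lay below without overlap, beside 8.08% of all genes tested. Ncoa2, a coactivator of the p160 family, was at 95.3 ± 3.69 CPM in DICER1-ifKO and 82.7 ± 2.95 CPM in WT (SD, n = 3 each), and its log2 fold change of 0.20 had an adjusted p of 0.130 by edgeR's quasi-likelihood test, and of 0.0463 with no filter on low counts. Smarca4, the chromatin remodelling ATPase BRG1, was at 165 ± 3.40 CPM in DICER1-ifKO and 145 ± 7.53 CPM in WT (SD, n = 3 each), with an adjusted p of 0.160 by the same test in edgeR. Across all genes, log2 fold changes correlated with transcript length (Spearman's rho 0.169 over 17230 genes, which are not independent), and among the libraries WT replicate 1 deviated most with length (rho -0.207 across genes). With an offset for transcript length the median was -0.09 for the chaperones and 0.07 for the cofactors. Ncoa2 then went from 0.20 to 0.15 and Smarca4 from 0.18 to 0.14 (adjusted p = 0.302 and 0.304 by edgeR's quasi-likelihood test). Hsp90aa1 went from -0.18 to -0.19 and Dnaja1 from -0.16 to -0.19 (adjusted p = 0.124 and 0.0695 by the same test).

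The estrogen response list, which includes Pgr and Greb1, had 9 positive and 7 negative log2 fold changes among 16 genes tested. Its median was 0.04, -0.05 when DICER1-ifKO replicate 3 was left out and -0.00 when WT replicate 1 was. Sgk3, a kinase gene induced by estrogen in breast cancer cells, had the smallest p of the list, with 13.9 ± 0.822 CPM in DICER1-ifKO and 15.9 ± 0.320 CPM in WT (SD, n = 3 each) and an adjusted p of 0.446 by edgeR's quasi-likelihood test. The glucocorticoid response list had 8 positive and 15 negative values among 23 genes tested and a median of -0.02, which ranged from -0.10 to 0.02 with libraries left out in turn and was positive without DICER1-ifKO replicate 2 or WT replicate 2. Klf9, a transcription factor gene induced by glucocorticoids, was at 103 ± 4.93 CPM in DICER1-ifKO and 95.6 ± 5.44 CPM in WT (SD, n = 3 each), with an adjusted p of 0.547 by edgeR's quasi-likelihood test. Fkbp5, a cochaperone gene that glucocorticoids also induce, was at 36.0 ± 4.54 CPM in DICER1-ifKO and 40.2 ± 3.25 CPM in WT (SD, n = 3 each), with an adjusted p of 0.544 by edgeR's quasi-likelihood test.

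The list of estrogen-related receptor targets, which includes Esrra, had 9 positive and 13 negative log2 fold changes among 22 genes tested and a median of -0.02, which ranged from -0.03 to -0.00 (WT replicate 1 left out) with 1 library omitted. Without DICER1-ifKO replicate 2 it was -0.01. Cycs, the cytochrome c gene, was at 131 ± 5.07 CPM in DICER1-ifKO and 150 ± 7.36 CPM in WT (SD, n = 3 each), with an adjusted p of 0.130 by edgeR's quasi-likelihood test, 0.0479 by DESeq2 and 0.0437 with no filter on low counts. The list of steroid synthesis and metabolism had 8 positive and 6 negative values among 14 genes tested and a median of 0.02, which was -0.01 without DICER1-ifKO replicate 2 or WT replicate 2. Srd5a1, the steroid 5-alpha-reductase of the brain, was at 9.27 ± 0.0914 CPM in DICER1-ifKO and 7.81 ± 0.781 CPM in WT (SD, n = 3 each), with an adjusted p of 0.487 by edgeR's quasi-likelihood test.

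**Figure D4:**
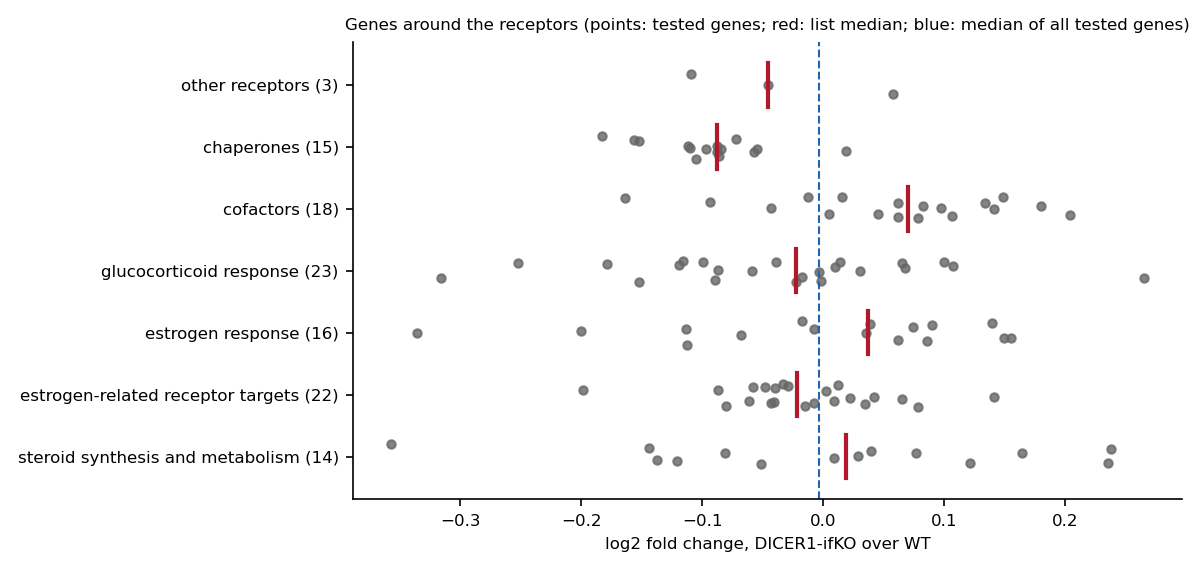
Log2 fold change of DICER1-ifKO over WT for each tested gene of 7 lists (grey points, numbers tested in brackets), with the list's median in red and the median of all 17405 genes as a dashed blue line. The chaperones lie mostly left of the line, with 14 of 15 negative, the cofactors mostly right of it, with 14 of 18 positive, and none of the points passed the test.

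For each of the 7 genes, the 2 genes with the highest Pearson correlation of log2 CPM over the 6 libraries were taken from 15470 genes whose log2 CPM averaged 1 or more. Predicted models, clone-based symbols such as Rik and Gm, and mitochondrial symbols were left out before ranking. The correlation for Esr1 was 0.996 with Eif4g2 and 0.992 with Grm2. For Pgr it was 0.993 with Zfp39 and 0.977 with Dab1, and for Greb1 0.994 with Rfc5 and 0.993 with Kdelr1. Nr3c1 had 0.992 with both Malt1 and Cirbp, and Nr3c2 had 0.997 with Med18. Esrra had 0.993 with Nacc1 and 0.986 with Homer3, and Esrrg had 0.997 with Psd3 and 0.993 with Galnt3. All of these are over 6 libraries that share depth and group. Each is the highest value or next to it among the genes kept of the 15470. The log2 fold change of Eif4g2 was 0.07 and that of Grm2 0.13, beside 1.58 for Esr1, and none of the genes named here was called.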

How the data were processed

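Polyadenylated RNA from hippocampal pools was made into stranded libraries and sequenced on an Illumina instrument, per the labels' protocols. The deposited raw counts per transcript are whole numbers. The submitters' processing notes name TopHat2 2.0.6 with Bowtie2 2.0.5 among their tools, beside SAMtools 0.1.18, CASAVA 1.8.2 and DESeq2, and the build GRCm38 (mm10). How reads were counted, with which annotation and whether by strand, is not given in the sources used here. The deposited normalised signal is the raw count over a factor of each library (0.967, 1.13 and 1.28 in DICER1-ifKO, 0.720, 0.994 and 1.01 in WT) and was not tested.

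The 76938 listed transcripts were reduced to 1 per symbol, by highest mean raw count. Genes passing filterByExpr (17405) were fitted with edgeR 4.0.16 (TMM, quasi-likelihood F-test, genotype only, Benjamini-Hochberg over all genes, threshold 0.05), and 60500 transcripts likewise. The edgeR fit over genes was tested on simulated gene counts, and the other steps were not tested in this way. Exons, transcript lengths and UTRs came from GENCODE M21, matched by coordinates (49 of 50 transcripts), on the GRCm38 genome. Per-kb levels divide CPM by transcript length. MicroRNA sequences came from RefSeq, which held all 15 looked up.

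The genes, lists, tests and alternatives were chosen with earlier results of these data known. Named genes were the 7, Dicer1, the 3 of smallest p per list and the 2 of most similar pattern per gene, of which some are not reported here. The labels' replicate numbers do not pair the libraries: same-numbered deviations correlated at -0.0681, 0.0278 and -0.0863. The libraries are pools of different mice per the labels, so the spread is between pools. Chi-square per degree of freedom between any 2 libraries was 1.75 to 5.19, above counting noise, so none was treated as a duplicate. Alternatives were DESeq2 size factors, DESeq2 1.42.0, no filter, a replicate block, each library left out, counts summed over transcripts and an offset for transcript length.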

Additional observations from a re-analysis of the deposited data

How the results depend on the processing

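The 6 genes other than Esr1 kept their direction in all 72 values under the alternatives. Of these 68 had an adjusted p, the lowest 0.451, and DESeq2 gave none for Pgr, Greb1, Esrra and Esrrg. With the length offset Nr3c1 was 0.013, Nr3c2 0.029, Pgr 0.15, Greb1 -0.38, Esrra 0.15 and Esrrg 0.067. Esr1 was 1.43 to 1.74 with libraries left out in turn, 2.06 summed over transcripts and 1.54 with the length offset. Once the counts of Esr1-006 were subtracted, a choice made after seeing the data, Esr1 was -0.26 (SE 0.22, adjusted p = 0.749 by edgeR's quasi-likelihood test). DESeq2 gave Esr1 1.58, also without an adjusted p. Esr1-006 was 2.96 to 3.15 and the Esr1 log2 ratio differed by 2.88 to 3.14 with libraries left out in turn, while Esr1-007 ranged from -0.18 to 0.24 and reversed without DICER1-ifKO replicate 2 or WT replicate 1.

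The number of genes called, 28, was 29 with DESeq2 size factors, 69 with DESeq2, 151 with no filter, 31 with the length offset, 7 summed over transcripts and 6 (without DICER1-ifKO replicate 1) to 105 (without WT replicate 2) with libraries left out. The causes were not tested. With the replicate block it was 22, and Esr1 was 1.58 (adjusted p = 7.09e-05 by edgeR's quasi-likelihood test). Dicer1 reversed to -0.017 with the length offset. Esrrb ranged from -0.13 to 0.23 with libraries left out and reversed without DICER1-ifKO replicate 1. Counts of list genes called stayed at 0 with libraries left out and with the length offset. Among named list genes, Hsp90aa1 and Cycs were called by DESeq2, and Hsp90aa1, Cycs and Ncoa2 with no filter. List medians ranged from 0.045 to 0.12 for cofactors and -0.049 to 0.065 for estrogen response with libraries left out. Low counts limit Greb1 and Esr1-007.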
